A study of Mus musculus with 4 samples.

Results

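The genes described here encode the machinery that copies DNA at the replication fork. They are 44 genes, chosen by function, of the 55335 rows of the expression table: the origin recognition complex, the GINS complex with CDC45 and the firing factor Ticrr, the 3 replicative DNA polymerases, the sliding clamp with its loader, the single-strand binding protein RPA, the enzymes of Okazaki fragments, the fork protection proteins and the chromatin assembly factors. All 44 have a row, and 42 had a mean of at least 1 CPM (counts per 1000000 reads assigned to genes) and were tested. Orc1 and Chaf1a lay below that level.

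RNA was measured in 4 SMART-Seq2 libraries, made by a full-length cDNA method with PCR amplification for small inputs. Every mouse was C57BL/6, 6 to 8 weeks old, and carried Iqgap3-2A-tdTomato, a reporter that makes the red protein tdTomato along with the product of the Iqgap3 locus. Living corpus cells of the stomach that bore EpCAM, an epithelial surface protein, were sorted by that reporter into IQ3pos (high) and IQ3neg (low or negative). Library IQ3pos_1909A and library IQ3neg_1909B were each made from 3 pooled mice, and IQ3pos_1910A and IQ3neg_1910B from 4, so n = 2 per fraction throughout. The fractions are defined by reporter brightness alone, not by cell cycle stage or cell type. In such bulk samples, fewer cells of a type and less RNA per cell cannot be told apart.

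DNA replication starts where the origin recognition complex binds DNA and the MCM helicase is loaded in G1 phase. In S phase CDC45 and GINS join the helicase to form the active CMG motor, polymerase alpha-primase lays down primers, polymerase epsilon extends the leading strand and polymerase delta the lagging strand, and the PCNA clamp, opened by replication factor C (RFC), holds them on DNA. Many of these genes are known targets of E2F transcription factors and are transcribed in cells that enter S phase. In the corpus gland, dividing progenitors sit in the isthmus, while most pit, parietal, chief and endocrine cells do not divide.

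Libraries held from 90714929 to 418401262 reads in genes, which leaves counting error small except in genes with few reads. The libraries differed in other ways that bear on every value here. The 20 most abundant genes took 63.4% and 57.9% of IQ3neg reads against 25.3% and 18.5% of IQ3pos reads, and 21757 and 21823 rows were above 0 in IQ3neg against 29724 and 30017 in IQ3pos. CPM are shares of a library, and the median of the 13019 tested genes was 0.68 higher in IQ3pos on the log2(CPM + 1) scale, a shift that was 0.0993 with TMM scaling (edgeR's factor for library composition). Differences below are IQ3pos minus IQ3neg on that log2 scale, which understates the change of low genes, and are read against 0.68. Iqgap3 itself, the basis of the sort, stood at 0.220 and 9.32 CPM in IQ3pos (pools of 3 and 4 mice) and 0.0435 and 0.452 CPM in IQ3neg. The library labelled IQ3pos_1909A thus lay below IQ3neg_1910B for this gene, and the fractions overlapped in its RNA. Without IQ3pos_1909A the median difference of the fork genes was 1.58 above the median gene, against 1.35 with it.

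Promoter windows are shown first, to set their E2F letters beside the RNA levels. RefSeq (GRCm38.p6) gave a window of 300 bases, 250 before and 50 after a gene's start, for 36 of the 44 members, and the others were Pole, Rfc2, Gins1, Dscc1, Gins4, Tipin, Prim2 and Gins2. The letters TTTCCCGC, TTTCGCGC, TTTGCCGC and TTTGGCGC, forms of the E2F consensus, were searched on both strands, as were the last 7 letters of each alone, which every 8-letter match also holds. Of the 36 members, 11 (30.6%) held an 8-letter match and 22 (61.1%) a 7-letter match. Over all 27025 genes with a window the shares were 2.605% and 10.9%, and over the 9557 of them tested here 4.635% and 19.4%. A match is a string of letters and does not show binding.

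The windows printed are those of the 6 members with the largest differences between fractions and the 2 with the smallest, among tested members that have a window. Lig1 has several listed starts, and its first window and the window with an 8-letter match are given. Sequences run 5′ to 3′ on the gene's strand, with 7-letter E2F matches (or their reverse complement) in capitals.
Chaf1b, chr16:93883651-93883950, plus strand: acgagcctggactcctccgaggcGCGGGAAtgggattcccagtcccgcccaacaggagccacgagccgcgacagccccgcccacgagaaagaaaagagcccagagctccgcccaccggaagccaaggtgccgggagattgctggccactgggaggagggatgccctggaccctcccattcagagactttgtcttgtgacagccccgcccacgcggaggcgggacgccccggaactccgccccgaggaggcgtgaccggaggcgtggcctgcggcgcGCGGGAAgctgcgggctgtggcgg
Cdc45, chr16:18811923-18812222, minus strand: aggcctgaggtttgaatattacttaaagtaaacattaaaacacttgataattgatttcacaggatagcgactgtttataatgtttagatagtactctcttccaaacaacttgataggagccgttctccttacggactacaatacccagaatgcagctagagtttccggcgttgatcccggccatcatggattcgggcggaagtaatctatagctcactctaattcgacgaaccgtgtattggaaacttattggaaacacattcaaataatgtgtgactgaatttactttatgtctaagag
Rpa3, chr6:8259092-8259391, minus strand: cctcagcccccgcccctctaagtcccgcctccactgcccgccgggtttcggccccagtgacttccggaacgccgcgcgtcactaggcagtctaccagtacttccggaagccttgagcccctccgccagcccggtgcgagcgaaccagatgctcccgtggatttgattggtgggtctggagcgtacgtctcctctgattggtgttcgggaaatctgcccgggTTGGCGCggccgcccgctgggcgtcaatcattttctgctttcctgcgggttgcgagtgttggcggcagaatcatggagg
Clspn, chr4:126556730-126557029, plus strand: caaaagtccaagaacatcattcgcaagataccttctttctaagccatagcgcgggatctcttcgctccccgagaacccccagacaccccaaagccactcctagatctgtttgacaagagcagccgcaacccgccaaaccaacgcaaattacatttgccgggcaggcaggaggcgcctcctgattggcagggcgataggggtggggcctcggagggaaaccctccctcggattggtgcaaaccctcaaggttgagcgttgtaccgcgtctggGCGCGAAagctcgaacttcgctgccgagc
First Lig1, chr7:13276925-13277224, plus strand: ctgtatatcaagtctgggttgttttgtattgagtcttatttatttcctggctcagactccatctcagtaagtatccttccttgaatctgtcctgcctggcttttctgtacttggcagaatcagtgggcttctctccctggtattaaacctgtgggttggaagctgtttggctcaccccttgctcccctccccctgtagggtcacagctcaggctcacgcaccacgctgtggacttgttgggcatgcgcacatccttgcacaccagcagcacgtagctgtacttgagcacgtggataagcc
Second Lig1, chr7:13278576-13278875, plus strand: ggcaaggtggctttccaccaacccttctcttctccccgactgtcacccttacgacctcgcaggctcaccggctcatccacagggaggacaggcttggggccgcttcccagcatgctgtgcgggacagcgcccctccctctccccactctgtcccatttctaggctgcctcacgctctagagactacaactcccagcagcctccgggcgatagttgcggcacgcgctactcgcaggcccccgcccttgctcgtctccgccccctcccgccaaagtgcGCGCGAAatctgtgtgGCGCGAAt
Pola2, chr19:5964157-5964456, minus strand: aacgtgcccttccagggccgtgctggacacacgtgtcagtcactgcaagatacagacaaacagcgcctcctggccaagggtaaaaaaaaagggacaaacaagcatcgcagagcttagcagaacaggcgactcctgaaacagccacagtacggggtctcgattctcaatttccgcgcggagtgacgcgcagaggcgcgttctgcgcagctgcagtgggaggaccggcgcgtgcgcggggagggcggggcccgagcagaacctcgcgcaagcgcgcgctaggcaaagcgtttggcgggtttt
Pole2, chr12:69228141-69228440, minus strand: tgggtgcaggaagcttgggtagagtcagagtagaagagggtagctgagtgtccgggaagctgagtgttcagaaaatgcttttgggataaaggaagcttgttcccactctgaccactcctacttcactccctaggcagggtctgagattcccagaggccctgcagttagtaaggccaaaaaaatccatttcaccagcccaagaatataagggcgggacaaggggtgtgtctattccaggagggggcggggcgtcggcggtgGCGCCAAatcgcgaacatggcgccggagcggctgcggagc
Pold1, chr7:44548766-44549065, minus strand: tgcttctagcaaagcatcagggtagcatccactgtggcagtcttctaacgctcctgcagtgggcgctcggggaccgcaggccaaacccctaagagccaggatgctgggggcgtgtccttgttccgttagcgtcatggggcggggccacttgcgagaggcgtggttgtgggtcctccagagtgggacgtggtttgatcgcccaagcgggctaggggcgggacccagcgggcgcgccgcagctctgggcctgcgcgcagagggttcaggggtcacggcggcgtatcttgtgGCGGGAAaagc

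Matches were found at both ends of this range. Pole2 and Pold1, with the smallest differences, each held an 8-letter match, as did Clspn and Lig1, with differences of 3.14 and 3.05. Cdc45 and Pola2, at 3.23 and 2.86, held none of the searched E2F letters in the window shown. The 10 tested members with an 8-letter match had a median difference of 1.78, and the 24 with a window and no such match 2.15. The pentamer CCAAT, the letters of the NF-Y box, was in windows of 20 of 36 members (55.6%) against 41.1% of all genes and 43.4% of tested genes, and TTTGAA, a form of the CHR element of mitotic genes, in 5 (13.9%) against 20.2% and 14.95%.

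**Figure D1:**
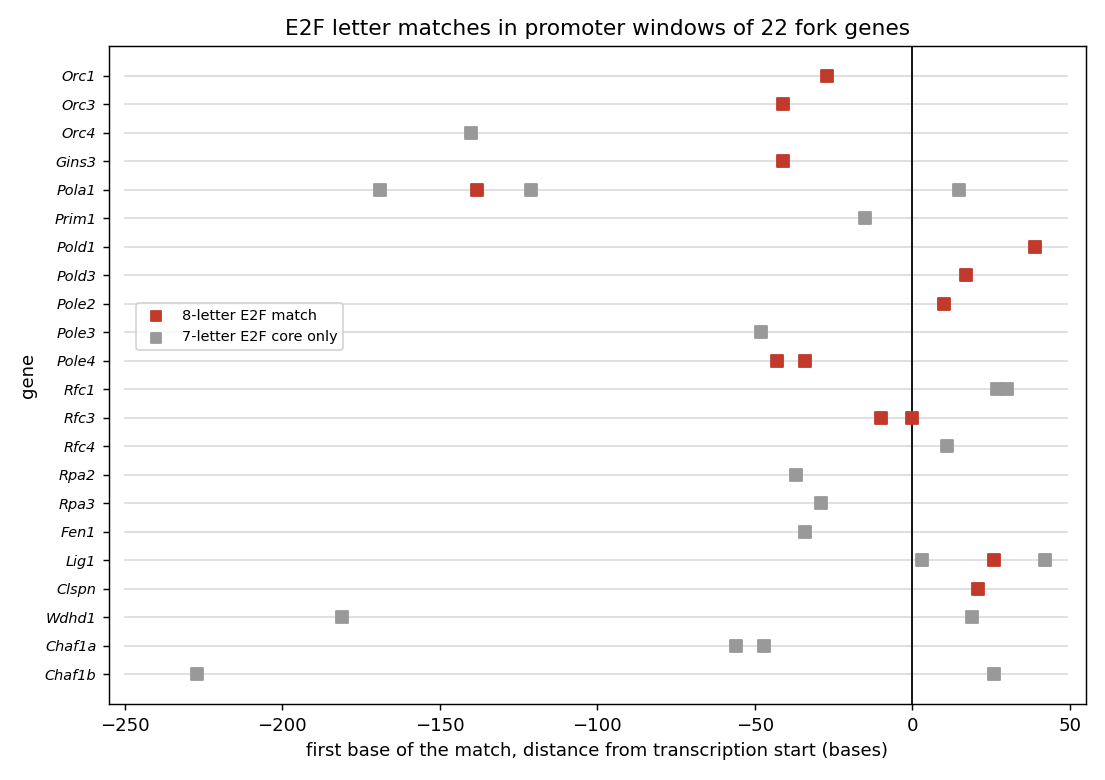
Positions of E2F letter matches in the promoter windows of the 22 members that held any, as the distance in bases of the match's first base from the gene's start (0), with 8-letter matches in red and 7-letter matches in grey. Genes with several listed starts are drawn on 1 line, and 8-letter matches are in 11 of the 22 genes.

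The fork genes as a group stood higher in IQ3pos. Summed over the 44 members, the level was 1593 and 2349 CPM in IQ3pos (pools of 3 and 4 mice) and 405 and 587 CPM in IQ3neg. Of the 42 tested members, 34 had both IQ3pos libraries above both IQ3neg libraries, and 0 had both below. Over all tested genes 40.9% were higher and 14.2% lower by the same rule. With TMM-scaled CPM, 26 of 42 were higher in both and 0 lower, beside 25.1% and 21.4% of all tested genes. The counts for subcomplexes and other lists below are to be read beside these shares. The median difference of the tested members was 2.03, which is 1.35 above the median gene. As a gene can pass the level filter through IQ3pos alone, the counts were also taken otherwise: 34 of all 44 members were higher in both libraries, and 0 lower, beside 31.3% and 7.37% of the 38793 genes with any read, and 31 of the 38 members with an IQ3neg mean of at least 1 CPM, beside 39.7% of such genes.

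No member passed limma's test over all tested genes at an adjusted p of 0.05 (0 higher and 0 lower; background 0%, as 0 of 13019 genes passed). At an unadjusted p under 0.05, 24 of 42 members were higher and 0 lower, against 18.2% and 4.98% of all tested genes. With TMM-scaled CPM 0 members passed the adjusted threshold (background 0.023% higher and 0.192% lower), and 11 higher and 0 lower reached the unadjusted level, against 6.76% and 7.79%. The edgeR quasi-likelihood test on reads recovered from the CPM called 0 members, with a background of 0.0654% higher and 0.226% lower. Of its 43 tested members 11 were higher and 0 lower at an unadjusted p under 0.05, against 5.48% and 11%, and 24 lay higher and 0 lower in both libraries, against 22.9% and 22.8%. The DESeq2 Wald test on the same reads called 5 of 42 members higher and 0 lower, beside 5.45% and 8.3% of all tested genes. The 5 were Pcna, Lig1, Rnaseh2a, Clspn and Tipin. At an unadjusted p under 0.05 DESeq2 had 13 members higher and 0 lower, against 10.8% and 12.7%, and on its scale 25 lay higher and 0 lower in both libraries, against 24.6% and 22.8%. Nothing says whether mice were shared between fractions. These fits had no block for the library number, and fits with one, which changed limma's calls, are given at the end. The p-values reflect no more than how far these pooled libraries lay apart, which may in part be technical.

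**Figure D2:**
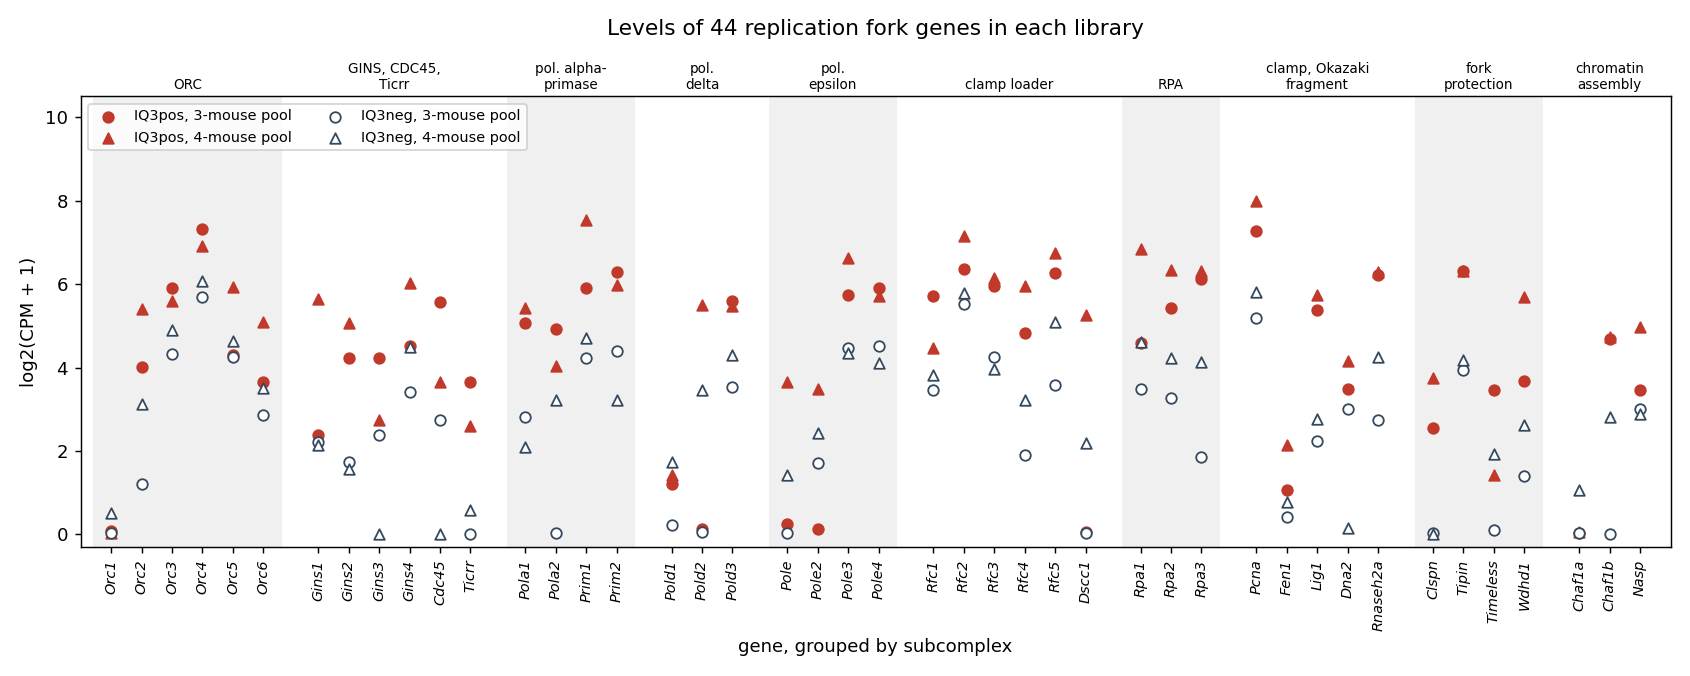
Level of each of the 44 genes in each library on the log2(CPM + 1) scale, grouped by subcomplex, with IQ3pos libraries filled in red, IQ3neg libraries open, circles for pools of 3 mice and triangles for pools of 4 mice. Both red symbols lie above both open symbols for 34 genes, and Orc1 and Chaf1a lie near 0 in most libraries.

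The origin recognition complex, which marks origins and helps to load the helicase, had 4 of 5 tested genes higher in both IQ3pos libraries. The 5 tested subunit genes had a median difference of 1.19, which is 0.52 above the median gene. Orc2 stood at 15.2 and 41.1 CPM in IQ3pos (pools of 3 and 4 mice) and 1.30 and 7.73 CPM in IQ3neg. Both IQ3pos values lay above both IQ3neg values, with a difference of 2.55 (SE 1.02, limma adjusted p = 0.213). Orc4, the most abundant subunit gene per kilobase of exon at a mean of 13.2 CPM per kb, stood at 159 and 119 CPM against 51.1 and 66.1. Orc3 stood at 59.5 and 47.7 against 19.2 and 28.8 CPM, and Orc6 at 11.6 and 33.1 against 6.24 and 10.3. For these 3 the groups did not overlap on CPM. For Orc6 they did overlap on TMM-scaled CPM. Orc5 stood at 18.6 and 59.8 CPM against 17.96 and 24.0, so the IQ3pos pool of 3 mice lay inside the IQ3neg range (difference 0.67, SE 0.70, limma adjusted p = 0.585), and its sign turned with TMM scaling (−0.0041). Orc1, whose product is the subunit that is made and degraded with the cell cycle, was at very low levels: 5 and 9 reads in IQ3pos (0.0551 and 0.0322 CPM) and 2 and 183 reads in IQ3neg (0.0174 and 0.437 CPM). The last value stood apart from the other 3 libraries. Its 95% exact Poisson interval of 0.376 to 0.506 CPM covers counting error of reads only, not the spread between libraries or from PCR amplification.

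CDC45 and the 4 GINS subunits complete the helicase, and Ticrr (treslin) brings CDC45 to origins. All 6 genes were higher in both IQ3pos libraries, with a median difference of 2.56. Gins2 stood at 17.9 and 32.6 CPM in IQ3pos and 2.32 and 1.96 CPM in IQ3neg, so the IQ3neg libraries were alike and low. Of its exonic bases 67.3% overlap exons of Gse1 on the other strand, and the strand setting of the counting is not given in the sources used here. Cdc45 stood at 46.6 and 11.5 CPM against 5.72 and 0.00478, the last value being 2 reads (difference 3.23, SE 1.30, limma adjusted p = 0.214). Ticrr stood at 11.6 and 5.02 CPM against 0 and 0.490, where the 95% exact Poisson interval of 0 reads reaches 0.0321 CPM. Gins3 stood at 17.7 and 5.71 CPM against 4.23 and 0.0143. In Cdc45, Ticrr and Gins3 the pool of 3 mice was the higher of the IQ3pos libraries. Gins1 and Gins4 showed the reverse: Gins1 stood at 4.21 and 49.2 CPM against 3.64 and 3.40. The IQ3pos library of 3 mice lay just above both IQ3neg libraries and that of 4 mice far above them. Gins4 stood at 21.8 and 64.6 CPM against 9.72 and 21.5 (difference 1.31, SE 0.75, limma adjusted p = 0.355), and with TMM scaling the groups of Gins1, Gins3 and Gins4 overlapped.

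Polymerase alpha-primase, which starts every new strand with an RNA-DNA primer, is described first among the polymerases. All 4 subunit genes were higher in both IQ3pos libraries, on CPM and on TMM-scaled CPM, with differences from 2.25 to 2.86. Prim1, the catalytic primase subunit, stood at 58.7 and 185 CPM in IQ3pos and 17.7 and 25.1 CPM in IQ3neg (difference 2.25, SE 0.64, limma adjusted p = 0.127). Prim2, the large primase subunit, stood at 77.1 and 61.7 against 19.9 and 8.34 CPM. Pola1, the catalytic polymerase subunit, stood at 32.4 and 42.4 against 6.02 and 3.29 CPM. Pola2, the accessory subunit, stood at 29.6 and 15.4 CPM against 0.0261 and 8.29, the former IQ3neg value being 3 reads. Its difference of 2.86 (SE 1.28, limma adjusted p = 0.251) came from 4.90 among the pools of 3 mice and 0.82 among the pools of 4.

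Of the elongating polymerases, delta had 1 of 3 genes and epsilon 2 of 4 higher in both IQ3pos libraries, beside 40.9% of all tested genes. In polymerase delta, Pold3, an accessory subunit, stood at 47.1 and 43.3 CPM in IQ3pos and 10.52 and 18.8 CPM in IQ3neg, with no overlap (difference 1.61, SE 0.54, limma adjusted p = 0.165). Pold1, the catalytic subunit, stood at 1.31 and 1.67 CPM against 0.174 and 2.33. The highest of these 4 values was an IQ3neg library (difference 0.33, SE 0.95, limma adjusted p = 0.850). Pold2 was nearly absent from both pools of 3 mice, at 8 and 4 reads (0.0882 and 0.0348 CPM), while among the pools of 4 mice it had 44.6 CPM in IQ3pos against 10.1 CPM in IQ3neg. Per kilobase of exon, Pold1 was 0.282 CPM per kb on average against 6.50 for Pold3, so the catalytic subunit gene was the lower of the pair.

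In polymerase epsilon, the small subunits and the catalytic core stood at different levels. Pole3 and Pole4, histone-fold subunits that bind DNA and histones, stood at 52.9 and 97.5 CPM and at 58.7 and 51.6 CPM in IQ3pos, against 21.2 and 19.2 and 21.7 and 16.2 CPM in IQ3neg. Neither overlapped between groups, and the difference for Pole3 was 1.78 (SE 0.50, limma adjusted p = 0.121). Pole, the catalytic subunit, stood at 0.198 and 11.5 CPM against 0.0174 and 1.68. Pole2, the second core subunit, stood at 0.0882 and 10.2 CPM against 2.27 and 4.38, and it was the sole tested member whose difference was below 0 (−0.27, SE 1.38, limma adjusted p = 0.919). For both genes the IQ3pos pool of 3 mice lay below an IQ3neg library and the IQ3pos pool of 4 mice above both. Without IQ3pos_1909A the difference for Pole2 was 1.42.

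**Figure D3:**
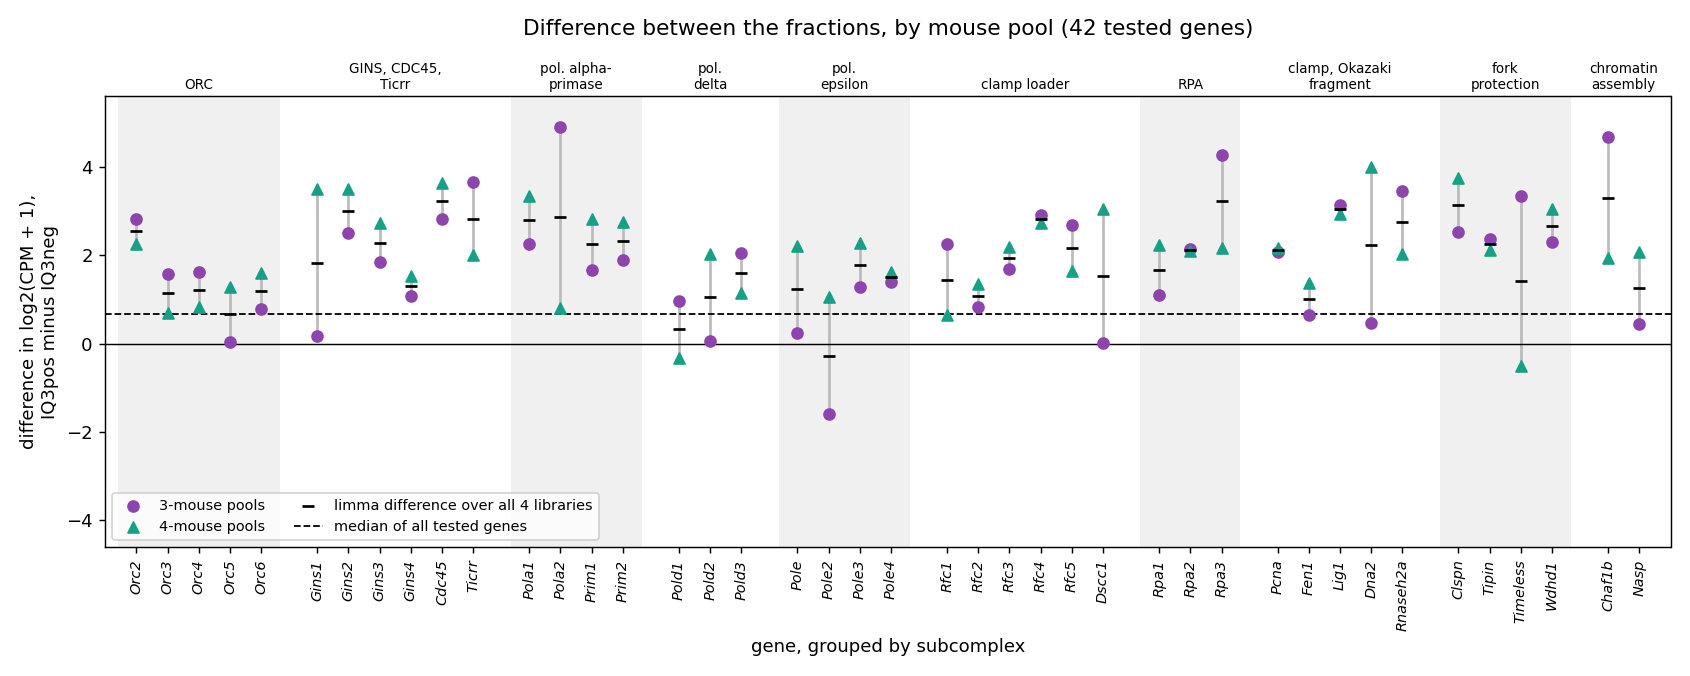
Difference in log2(CPM + 1), IQ3pos minus IQ3neg, for the 42 tested genes within the pools of 3 mice (circles) and of 4 mice (triangles), with the limma difference over all libraries as a short bar and the median of all tested genes (0.68) as a dashed line. Pcna, Rpa2, Rfc4, Lig1 and Tipin show nearly the same difference in both pools, and Pole2, Pold1 and Timeless change sign.

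RFC opens the PCNA ring and loads it at primer ends, and Dscc1 belongs to an alternative loader that serves sister chromatid cohesion. Of the 6 genes, 5 were higher in both IQ3pos libraries, with a median difference of 1.74. Rfc4 stood at 27.2 and 61.3 CPM in IQ3pos and 2.73 and 8.37 CPM in IQ3neg (difference 2.83, SE 0.81, limma adjusted p = 0.127), and the differences within pools were close, at 2.92 and 2.73. Rfc5 stood at 76.7 and 107 against 11.04 and 33.3 CPM, and Rfc3 at 61.1 and 70.3 against 18.2 and 14.6 CPM. These are small subunits of the loader, and in each the groups were well apart. Rfc2, another small subunit, stood at 81.2 and 141 against 45.1 and 54.6 CPM (difference 1.09, SE 0.42, limma adjusted p = 0.203), and its groups overlapped on TMM-scaled CPM. Rfc1, the large subunit, stood at 52.0 and 21.2 against 10.1 and 13.1 CPM. Dscc1 was at 3 and 2 reads in the pools of 3 mice and at 37.1 CPM in IQ3pos against 3.58 in IQ3neg among the pools of 4 mice. Among tested members, Pold2, Pole and Dscc1 had under 20 reads in both libraries of 3 mice.

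RPA coats the single-stranded DNA that the helicase exposes. Rpa3, the smallest subunit, stood at 69.0 and 78.1 CPM in IQ3pos and 2.63 and 16.5 CPM in IQ3neg, with a difference of 3.22 (SE 0.85, limma adjusted p = 0.112). Rpa2, the subunit phosphorylated under replication stress, stood at 41.9 and 79.8 against 8.73 and 17.9 CPM. Neither overlapped between groups. Rpa1, the large DNA-binding subunit, stood at 23.0 and 115 against 10.1 and 23.4 CPM, and the IQ3pos pool of 3 mice lay just under the IQ3neg pool of 4 (difference 1.68, SE 0.89, limma adjusted p = 0.320).

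The sliding clamp and the enzymes that finish Okazaki fragments had all 5 genes higher in both IQ3pos libraries, with a median difference of 2.24. Pcna, on chromosome 2 of GRCm38 at 132249162 to 132253314, was the most abundant member, at 153 and 254 CPM in IQ3pos and 35.2 and 55.5 CPM in IQ3neg, and at a mean of 51.9 CPM per kb of exon. Its difference was 2.13 (SE 0.43, limma adjusted p = 0.0739, higher in both libraries), and it was 2.09 and 2.18 within the pools of 3 and 4 mice. A row for a processed copy, Pcna-ps2, stood at 3.89 and 2.57 CPM in IQ3pos and 0.800 and 0.669 CPM in IQ3neg, and reads may have been split between the copies. Lig1, which seals the nicks between fragments (chromosome 7, 13277283 to 13311433), stood at 41.0 and 52.0 CPM against 3.75 and 5.87. The groups were far apart, with a difference of 3.05 (SE 0.63, limma adjusted p = 0.0764). Rnaseh2a, the catalytic subunit of the RNase that removes RNA from primers and DNA, stood at 73.5 and 77.1 against 5.74 and 18.03 CPM. Pcna, Lig1 and Rnaseh2a passed the DESeq2 test, with adjusted p = 0.0137, 0.00827 and 0.0368 and both IQ3pos libraries higher in each.

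Dna2, a nuclease and helicase for long flaps, stood at 10.3 and 17.0 CPM in IQ3pos and 7.10 and 0.115 CPM in IQ3neg. The gap was narrow in the pools of 3 mice and wide in the pools of 4, and the groups overlapped on TMM-scaled CPM. Fen1, the flap endonuclease, was far lower than its partners, at 1.09 and 3.44 CPM against 0.339 and 0.703 (difference 1.013, SE 0.89, limma adjusted p = 0.515). Of the exonic bases of Fen1, 84.2% overlap exons of Tmem258 and Gm10143 on the other strand. How reads from such stretches were assigned is not given in the sources used here. The effect of this overlap on the low level of Fen1 was not tested.

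The fork protection proteins couple the helicase to the polymerases and pass stress signals to the checkpoint. Clspn (claspin, chromosome 4, 126556935 to 126593903) was present in IQ3pos and nearly absent from IQ3neg, at 4.89 and 12.5 CPM (444 and 3491 reads) against 2 reads in each IQ3neg library (0.0174 and 0.00478 CPM, with 95% exact Poisson intervals reaching 0.0628 and 0.0173 CPM). Its difference on the compressed scale was 3.14 (SE 0.97, limma adjusted p = 0.141), and DESeq2 gave an adjusted p of 0.000168, with both IQ3pos libraries higher. Tipin (chromosome 9, 64281581 to 64305424) had the smallest adjusted p of any member in limma, at 0.0721. It stood at 78.6 and 78.5 CPM in IQ3pos and 14.4 and 17.1 CPM in IQ3neg, a difference of 2.25 (SE 0.44), and also passed DESeq2 (adjusted p = 0.0480). Its binding partner Timeless stood at 10.02 and 1.70 CPM against 0.0782 and 2.82. Here the IQ3pos pool of 4 mice lay below the IQ3neg pool of 4 (difference 1.43, SE 1.22, limma adjusted p = 0.507). Wdhd1 (AND-1), which ties polymerase alpha to the helicase, stood at 11.9 and 50.7 against 1.63 and 5.19 CPM, with no overlap.

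Chromatin assembly factors place histones on the new DNA. Chaf1b, a subunit of CAF-1, had the largest difference of all tested members on the log2(CPM + 1) scale, 3.31 (SE 1.17, limma adjusted p = 0.177). In edgeR and DESeq2 its difference was 2.03 and 2.52, below that of Clspn (9.41 and 8.84). Chaf1b stood at 24.6 and 25.8 CPM in IQ3pos and 0 and 5.99 CPM in IQ3neg. The IQ3pos libraries were alike, while the 95% exact Poisson interval of 0 reads in the IQ3neg pool of 3 mice reaches 0.0321 CPM. Chaf1a, the large CAF-1 subunit, was at 2 and 11 reads in IQ3pos (0.0220 and 0.0394 CPM) and at 2 and 463 reads in IQ3neg (0.0174 and 1.11 CPM). Exons of Ubxn6 on the other strand overlap 52.5% of its exonic bases, and the effect of this overlap on its level was not tested. Nasp, a histone chaperone, stood at 10.01 and 30.2 against 7.08 and 6.36 CPM (difference 1.27, SE 0.83, limma adjusted p = 0.423), and its groups overlapped on TMM-scaled CPM.

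Replicates of a fraction often differed for single members. The IQ3pos libraries lay over 4-fold apart on the CPM + 1 scale for 8 of the 42 members (19.0%; 25.7% of all tested genes): Gins1, Pold2, Pole, Pole2, Dscc1, Rpa1, Timeless and Wdhd1. The IQ3neg libraries did so for 8 members (19.0%; 12.96% of all): Gins3, Cdc45, Pola2, Pold2, Dscc1, Rpa3, Dna2 and Chaf1b. In each fraction, 30 of 42 members were higher in the pool of 4 mice than in the pool of 3, beside 52.8% of all tested genes in IQ3pos and 61.7% in IQ3neg. Within the pools of 3 mice the median difference of the members was 1.87, or 1.15 above that of all genes in those pools, and within the pools of 4 mice it was 2.11, or 1.55 above. The 8 tested members whose groups overlapped were Orc5, Pold1, Pold2, Pole, Pole2, Dscc1, Rpa1 and Timeless.

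Other genes of DNA replication, from lists drawn up by function, were set beside the members. No gene of these lists passed limma's test or edgeR's. The DESeq2 test, whose calls over all genes are given above, called Mcm4, Gmnn, Asf1b, Rbbp7 and Chek1 higher and Mms22l lower. The MCM helicase and licensing genes had 10 of 11 higher in both IQ3pos libraries and a median difference of 2.85. Mcmbp, an MCM-binding protein and the most abundant of them, had 864 and 539 CPM in IQ3pos against 239 and 179 CPM, and Mcm6 at 95.01 and 270.2 against 3.32 and 44.3. Of 6 genes of origin firing, 4 were higher in both, with a median of 1.58. Dbf4, the activator of the CDC7 kinase, stood at 52.1 and 49.6 against 0.0174 and 5.30 CPM, and Donson, a replisome factor, at 30.7 and 5.59 against 10.2 and 7.68. Among 16 tested partners in clamp loading, fork repair and chromatin assembly, 9 were higher and 1 lower in both, with a median of 1.35. The shares over all tested genes were 40.9% and 14.2%. On TMM-scaled CPM, 7 partners were higher and 3 lower, beside 25.1% and 21.4% of all tested genes. The histone-binding gene Rbbp7 stood at 754 and 799 against 188 and 203 CPM, and the H3-H4 chaperone gene Asf1b at 229 and 432 against 33.2 and 28.4.

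The DNA polymerases that work outside the fork, in repair, mitochondria or bypass of lesions, had a median difference of 0.64, which is 0.03 below the median gene. Of the 12 tested, 7 were higher in both IQ3pos libraries on CPM and 2 on TMM-scaled CPM, where 1 was lower. Over all tested genes, 40.9% were higher on CPM, and 25.1% higher and 21.4% lower on TMM-scaled CPM. Polh, a bypass polymerase, had 67.7 and 85.1 CPM in IQ3pos against 25.6 and 20.1 CPM. Rev3l, the catalytic subunit of polymerase zeta, stood at 45.4 and 46.7 against 38.3 and 37.7 CPM. The 11 tested subunit genes of the replicative polymerases and primase had 7 higher in both, and the difference between these lists was not tested. Of 6 S phase checkpoint genes, 3 were higher in both on CPM, with a median of 0.83. On TMM-scaled CPM 2 were higher and 1 lower, to be set beside the same shares of all tested genes. Wee1 stood at 20.9 and 60.9 against 20.7 and 16.8 CPM and Cdc25a at 16.7 and 24.5 against 20.8 and 26.5.

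**Figure D4:**
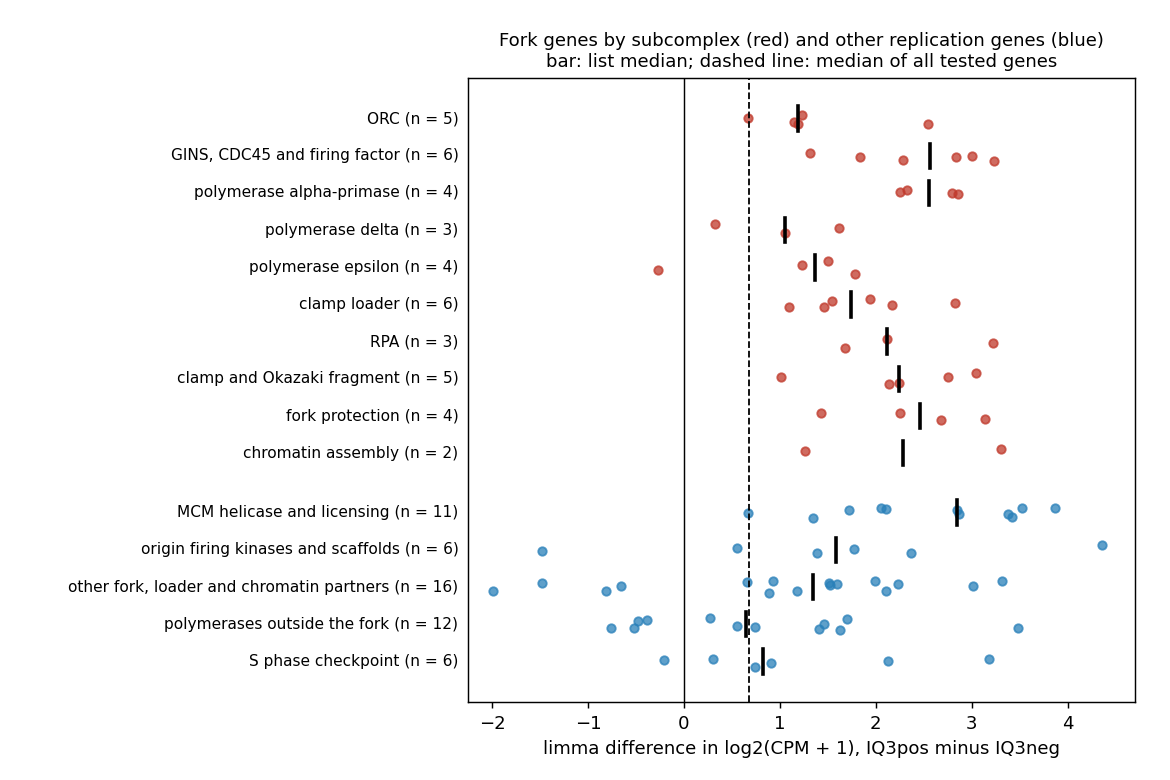
Limma difference in log2(CPM + 1), IQ3pos minus IQ3neg, for each tested gene by list, with fork genes by subcomplex in red, other replication genes in blue, list medians as bars and the median of all tested genes (0.68) dashed. The list medians run from 1.06 (polymerase delta) to 2.56 in the subcomplexes. In the other lists they are 2.85 (MCM helicase and licensing), 1.58 (origin firing), 1.35 (partners), 0.83 (S phase checkpoint) and 0.64 (polymerases outside the fork).

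Markers of cell types differed between the fractions too. Of 20 marker genes for G2 phase and mitosis, 19 stood higher in both IQ3pos libraries, and their summed level was 1988 and 5023 CPM against 129.96 and 373 CPM in IQ3neg. Epithelial markers were present in all libraries, at 10167 and 11350 CPM summed in IQ3pos and 3242 and 5689 in IQ3neg (5 of 6 higher in both). Markers of pit cells summed to 11440 and 11427 CPM in IQ3pos and 1287 and 1736 in IQ3neg (5 of 5 higher in both), those of parietal cells to 4099 and 3035 against 449 and 526 (5 of 6), and those of neck cells to 5175 and 8646 against 1181 and 2168 (1 of 3). Chief cell markers summed to 51054 and 19686 against 415827 and 404464 CPM (6 of 7 lower in both), enteroendocrine markers to 445 and 269 against 17690 and 11229 (8 of 8), and tuft markers to 554 and 130.02 against 369 and 1112 (1 of 5). Leukocyte markers summed to 260.1 and 61.7 CPM in IQ3pos and 366 and 70.7 in IQ3neg (1 of 6 tested higher in both), mostly from Lyz2, with Cd3e and Ms4a1 under 1 CPM in every library. Stromal and endothelial markers summed to 2.00 and 0.340 against 28.5 and 1.51 CPM (2 of 3 tested lower in both). The 3 tested were Dcn, Col3a1 and Col1a1, at 14.3, 7.69 and 6.28 CPM in IQ3neg_1909B and 1.09, 0.0813 and 0.315 in IQ3neg_1910B. In IQ3pos_1909A they stood at 0.0661, 0.0110 and 1.08 CPM, and all were under 1 CPM in IQ3pos_1910A. The other genes of this list, Pecam1, Cdh5 and Kdr among them, were under 1 CPM in every library. Erythroid markers summed to 3.35 and 0.423 against 13.9 and 3.19 CPM (2 of 2 tested lower in both). Mitochondrial transcripts took 11.8% and 8.17% of IQ3pos reads and 8.20% and 2.88% of IQ3neg reads. The part of these differences in cell makeup in the result for the fork genes was not tested.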

How the data were processed

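The submitters' processing notes name STAR 2.7.1a, featureCounts, Subread 2.0.0, edgeR and GRCm38/mm10, without roles or order. The annotation, strand setting and handling of multi-mapped and duplicate reads were not given in the sources used here. The authors deposited CPM for each gene symbol and library. Each column sums to 1000000, and 100% of the values above 0 were whole multiples (within 0.05) of a single step per library, so whole reads were recovered. Groups came from the sample titles. Genes with a mean of 1 CPM or more (13019) were tested two-sided and without a block by limma-trend, version 3.58.1 under R 4.3.3, on log2 of CPM plus a pseudocount of 1, and p-values were adjusted by Benjamini-Hochberg over these genes (threshold 0.05). The fit had 2 residual and 3.61 prior degrees of freedom. The edgeR 4.0.16 quasi-likelihood test (TMM, filterByExpr) and the DESeq2 1.42.0 Wald test ran on the recovered reads. Other alternatives were pseudocounts, filters, scalings, a block for the library number and each library left out, the last also with TMM scaling, which was added after seeing the data. Scripts were tested on simulated data. The members, lists and tests were chosen with earlier results of these data known. Statistics are given for the members of largest and smallest difference in each subcomplex, for any that passed limma, and for Pcna, Rnaseh2a and Tipin, chosen after their values were seen. Other lists are shown by their 2 genes of highest mean CPM. Positions and exon lengths are from GENCODE vM21 on GRCm38, 1-based. Intervals from reads cover counting error only, since the reads carry no molecular identifiers. For a count of 0 in IQ3neg_1909B the 95% exact Poisson interval reaches 0.0321 CPM, while 3 reads there are 0.0261 CPM. E2F, CCAAT and CHR letters were searched in RefSeq promoter windows with 250 bases before the start.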

Additional observations from a re-analysis of the deposited data

How the results depend on the processing

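Results were recomputed under 20 alternatives. The count of members higher in both IQ3pos libraries was 34 of 42, beside 40.9% of all tested genes. It was 21 of 42 when the 20 top genes were removed, where no share over all genes was computed to set beside it. With TMM scaling it was 26 of 42, beside 25.1%, and in edgeR 24 of 43, beside 22.9%. Leaving a library out can only keep or raise this count, since fewer libraries are compared. It was then 34 to 41 (28 to 39 with TMM scaling), which is no check on it. The members' median above all genes (1.35) was 0.94 with a pseudocount of 5 and 1.87 with no filter, and ranged from 1.11 to 1.58 with a library left out (with TMM scaling 1.63 without IQ3pos_1909A, 1.09 without IQ3neg_1909B and 1.05 without IQ3pos_1910A). Genes called higher and lower (0 and 0) became 239 and 54 with a pseudocount of 5, 689 and 93 with a mean of at least 5 CPM, 3 and 25 with TMM scaling, 7 and 34 with DESeq2 scaling, 2 and 9 with the 20 top genes removed, 11 and 38 in edgeR and 710 and 1081 in DESeq2, and stayed at 0 with any library left out. Members called higher (0) became 3 with a mean of at least 5 CPM (Pcna, Lig1 and Tipin) and 5 in DESeq2. The causes were not tested.

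Library numbers are shared between fractions, but the labels do not say that mice were, and same-numbered libraries deviated together with r = 0.1475 across genes. With the replicate block, limma called 1216 of the 13019 tested genes higher and 125 lower, with 11 of the 42 tested members among the higher. With TMM scaling the block gave 265 and 186 of these genes and 0 members, and in edgeR it gave 0 and 0.

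Of the 42 tested members, 30 kept their sign under every alternative that tested them. Orc5 (0.67) turned to −0.0041 with TMM scaling with or without the block, −0.10 with DESeq2 scaling, −0.29 with the 20 top genes removed and −0.023 in edgeR with the block. With a library left out it ran from −0.15 to 1.48, and with TMM scaling it was −0.13 without IQ3neg_1909B and −0.96 without IQ3pos_1910A. Pold1 (0.33) was −0.043 with DESeq2 scaling, −0.099 with the 20 top genes removed, −0.83 in edgeR, −0.82 there with the block and −0.34 in DESeq2. With a library left out it ran from −0.42 to 1.08, and with TMM scaling it was −0.81 without IQ3neg_1909B and −0.17 without IQ3pos_1910A. Pole2 (−0.27) was 0.090 with a pseudocount of 5 and ran from −1.95 to 1.42 with a library left out (0.094 without IQ3neg_1910B). With TMM scaling and without IQ3pos_1909A it was 0.97. With a library left out Pold2 ran from −1.64 to 3.75 (−0.65 without IQ3neg_1909B), Pole from −0.46 to 2.92 and Dscc1 from −1.06 to 4.14. With TMM scaling and without IQ3pos_1910A, Pold2 was −1.81, Pole −0.63, Dscc1 −1.19, Orc6 −0.30, Gins1 −0.47, Gins4 −0.25, Rfc2 −0.14, Rpa1 −0.27 and Nasp −0.25, and without IQ3neg_1909B Pold2 was −1.02. In these leave-out fits the lone library is assumed to vary like the others. Counting error matters mainly for Orc1, Chaf1a and values of a few reads. Whether such low counts come from depth or from the making of the libraries was not tested.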
